A study of Mus musculus with 2 samples.

Results

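Of the 39098 gene symbols in the deposited mouse trigeminal ganglion (TG) data, 9 were described here because they code for the cytokines of the interleukin 6 family, their receptor subunits and their main feedback inhibitor. They were chosen by name and not by a cutoff on a measured value, but with earlier results of these data known. They are the ligands Il6, Lif, Osm and Cntf, the receptor subunits Il6ra, Il6st, Lifr and Cntfr, and the inhibitor Socs3. All 9 were listed in both libraries. The data came from BD Rhapsody single-cell RNA sequencing of dissociated TGs of male C57BL/6 mice aged 5 to 8 weeks, with 1 library from control mice and 1 from mice with orofacial inflammation. For the inflammation, 20 μL of complete Freund's adjuvant (CFA), mixed 1:1 with sterile saline, was injected into the right vibrissal pad, and the right TGs were taken a week later. The control library is labelled as having had no treatment, whereas the study's methods describe saline-injected controls, and the number of mice pooled in each library is not given in the sources used here. With 1 library per condition no difference between conditions could be tested. Every interval below is a 95% interval that covers counting error only, and a difference between the libraries cannot be told apart from a difference between 2 preparations.

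Members of the interleukin 6 family are short secreted proteins that act through the shared signalling subunit gp130, the product of Il6st. IL-6 first binds its own receptor IL6RA, LIF needs the LIF receptor beside gp130, CNTF needs CNTFR and the LIF receptor, and OSM signals through the OSM receptor or, more weakly in mice, the LIF receptor. The bound receptors activate JAK kinases and the transcription factor STAT3, and STAT3 switches on Socs3, whose product shuts the same receptors down. IL6RA can also be shed from cells and, bound to IL-6, act on cells that carry gp130 alone (trans-signalling), and in sensory ganglia the family is known for its part in nerve injury and inflammatory pain.

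The control library held 7298 cells and 48916096 unique molecular identifiers (UMIs), and the CFA library 4080 cells and 22096268 UMIs. After filtering, 6695 and 3661 cells were kept, with a median of 1448 and 1192 UMIs per cell. Neurons were far deeper, with a median of 43199 UMIs in the 838 control neurons and 34757 in the 435 CFA neurons, so a share of cells with a UMI is given below both as counted and after thinning cells to 1 depth (5000 UMIs for neurons, 500 for other cells). The libraries shared 27 cell barcodes. The summed markers of every named class were highest in that class in both libraries, but 4 of the 10 markers of non-myelinating Schwann cells (nmSCs) and 5 to 6 of the 10 of satellite glial cells (SGCs) had their own highest level there. NF neurons (large neurofilament neurons) numbered only 18 and 6, and their summed markers were 2277 and 2846 CPM (UMIs per 1000000 UMIs of the class in that library) beside 1956 and 1925 in Trpm8 neurons.

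Some clusters came almost wholly from 1 library. A cluster of SGCs led by the interferon-induced genes Gbp2 and Cxcl10 held 286 control and 6 CFA cells, a PEP1 neuron cluster led by Iigp1 and Gbp4 held 22 and 2, and a macrophage cluster led by Ly6i and Cxcl9 held 34 and 0. Of 15 interferon-response genes, those lower in the CFA library by at least 1.5-fold numbered 13 in PEP1 neurons, 15 in SGCs, 14 in macrophages, 11 over all neurons and 9 in endothelial cells (ECs). Of those with at least 20 counts, 9 of 13 were lower in nmSCs and 9 of 14 in fibroblasts. In myelinating Schwann cells it was 6 of 12, in T and NK cells 6 of 7 and in mural cells 7 of 9. Of all genes tested, 7.31% were lower to that degree in PEP1 neurons, 11.9% in SGCs, 22.7% in macrophages, 7.11% over all neurons and 16.0% in ECs. These shares were 18.5% in nmSCs, 13.1% in fibroblasts, 11.1% in myelinating Schwann cells, 25.8% in T and NK cells and 24.4% in mural cells. Ifit1 was higher to that degree in fibroblasts and oligodendrocyte-like cells, where 13.4% and 14.7% of all genes were. In oligodendrocyte-like cells 2 of 5 were lower, beside 12.6% of all genes. Among the clusters, a fibroblast (FB) cluster led by Ibsp and Mgp went the other way, with 6 control and 37 CFA cells.

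Il6 on chromosome 5 (GRCm38, chr5:30013114-30019981, plus strand) and Socs3 on chromosome 11 (chr11:117966079-117970047, minus strand) are the members with the largest library differences in PEP1 neurons, the ligand at the head of the pathway and the inhibitor at its end. The 250 bases before the RefSeq start of each (GRCm38.p6) are shown for that reason, 5′ to 3′ on the gene's strand, with matches to 4 motif patterns in capitals. The patterns searched on both strands were AP-1 (TGANTCA), STAT (TTCNNNGAA), C/EBP (TTNNGNAA) and the kappaB motif. The Il6 window is chr5:30012864-30013113 and the Socs3 window chr11:117969367-117969616, which GENCODE M21 places before the protein-coding transcript but within non-coding transcripts of Socs3.
Il6: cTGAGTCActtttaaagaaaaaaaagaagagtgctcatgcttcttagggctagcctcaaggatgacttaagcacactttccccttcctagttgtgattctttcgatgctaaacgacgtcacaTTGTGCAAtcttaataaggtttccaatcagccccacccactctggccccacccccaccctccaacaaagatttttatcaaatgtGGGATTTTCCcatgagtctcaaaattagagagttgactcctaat
Socs3: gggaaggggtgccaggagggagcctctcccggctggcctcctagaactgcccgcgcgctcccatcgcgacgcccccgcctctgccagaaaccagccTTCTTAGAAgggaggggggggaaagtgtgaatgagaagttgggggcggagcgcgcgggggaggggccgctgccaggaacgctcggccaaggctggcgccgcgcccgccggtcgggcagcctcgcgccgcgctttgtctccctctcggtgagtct
The Il6 window held an AP-1 match, TGAGTCA, 249 to 243 bases before the start, a C/EBP match, TTGTGCAA, at 128 to 121 and a kappaB match, GGGATTTTCC, at 44 to 35. The Socs3 window held a STAT match, TTCTTAGAA, 154 to 146 bases before the start. Among 32851 windows of the same length the AP-1 pattern was found in 6.75%, the STAT pattern in 7.02%, the C/EBP pattern in 36.8% and the kappaB motif in 3.90%. Windows were at hand for 8 of the 9 genes, and no other window of a member held a STAT match. A match describes the letters only.

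Most Il6 counts lay in neurons, the cells that gave most of the UMIs, and within neurons in PEP1, the peptidergic nociceptors that carry Calca and Tac1. In the control library 995 Il6 UMIs were counted in 245 of the kept cells, and in the CFA library 215 UMIs in 74. Neurons held 86.2% (83.9 to 88.3) of the Il6 counts of the named cell types in control and 82.8% (77.0 to 87.7) in CFA, beside 81.4% and 78.6% of all UMIs of those types. By level, neurons at 22.0 and 10.05 CPM stood below FBs at 76.8 and 39.7 CPM and, in control, below mural cells at 176 CPM. Within neurons, PEP1 held 95.4% (93.8 to 96.7) of the Il6 counts in control and 89.9% (84.4 to 94.0) in CFA, although it gave only 40.1% and 45.3% of the neuronal UMIs. PEP1 was thus over-represented in both libraries.

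**Figure D1:**
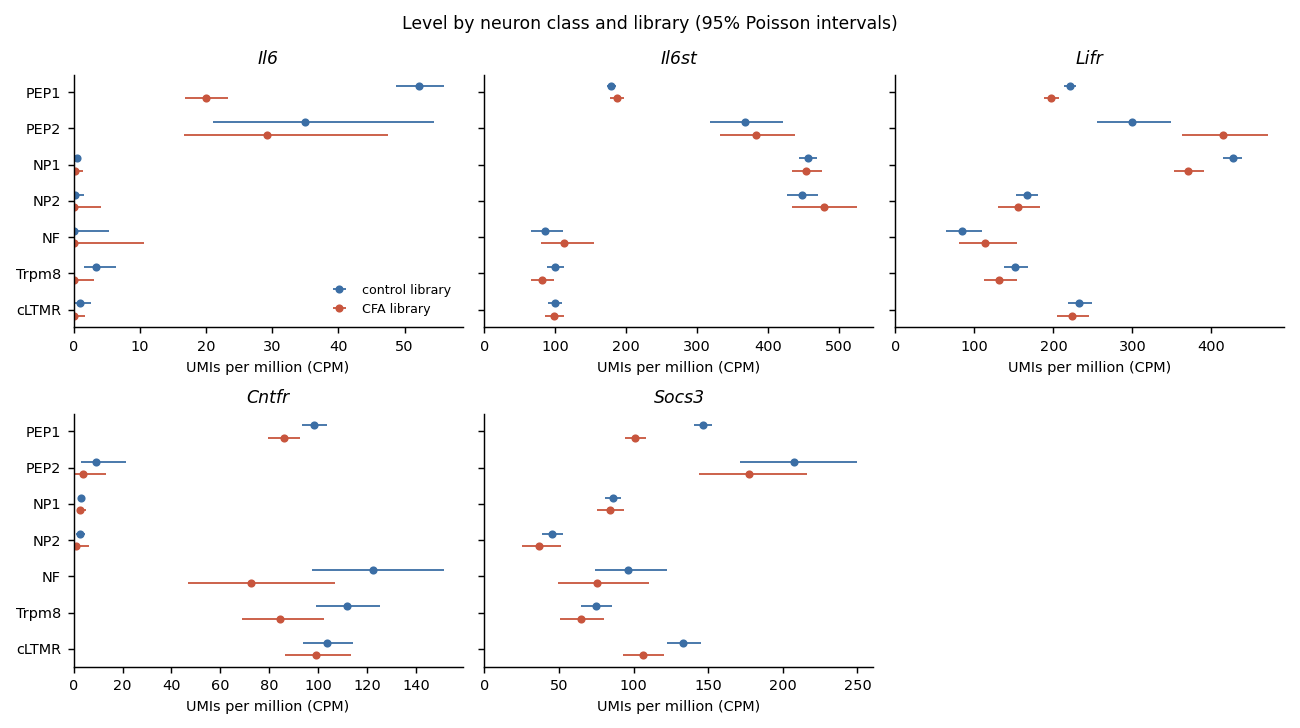
Level of Il6, Il6st, Lifr, Cntfr and Socs3 in each neuron class, in CPM of that class and library. The control and CFA libraries are shown with 95% intervals that cover counting error only. Il6 is high in PEP1 (52.2 and 19.9 CPM) and PEP2 (34.9 and 29.2 CPM), Cntfr is near 0 in NP1 and NP2, and Il6st and Lifr are read in every class.

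In PEP1 neurons the Il6 level was 52.2 CPM (48.7 to 56.0; 810 counts in 398 cells) in control and 19.9 CPM (16.9 to 23.4; 152 counts in 232 cells) in CFA. The log2 ratio of CFA over control was −1.39 (−1.65 to −1.14), so the intervals of the levels lay far apart. PEP1 neurons with an Il6 UMI made up 43.0% (171 of 398) in control and 24.6% (57 of 232) in CFA, and 18.8% (74 of 393) and 7.62% (17 of 223) after thinning. NP1 neurons, which were deeper than PEP1 (medians of 66501 and 61994 UMIs against 36364 and 30611), showed an Il6 UMI in only 6 of 176 control and 1 of 65 CFA cells.

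Il6 was held unevenly by PEP1 cells. The cell with the most held 26 counts in control and 18 in CFA, and the 10 cells with the most held 26.9% of the PEP1 counts in control and 50% in CFA. Among the cells with a UMI the median was 2 counts in control and 1 in CFA. Without the 10 cells of each library with the most counts the log2 ratio was −1.90. Leaving them out took away a larger part of the CFA than of the control counts. This value therefore cannot say whether the difference rested on few cells.

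PEP1 was made of 7 clusters, and Il6 differed between them. In control, Il6 was highest in the cluster led by Prokr2 and Cartpt, at 85.1 CPM (75.9 to 95.05), and in the cluster led by Dcdc2a and Sstr2, at 80.3 CPM (70.4 to 91.2), and these intervals overlapped. The interferon-led cluster followed with 65.1 CPM (48.5 to 85.6), which overlapped both. The cluster led by Mfap5 and Gpr83 had 36.1 CPM (27.3 to 46.9), that of Chrna3 and Chrnb4 26.3 CPM (21.5 to 31.9), that of Serpinb1a and Cdhr1 23.4 CPM (16.9 to 31.7) and that of Trappc3l and Tac2 11.3 CPM (5.16 to 21.4), each overlapping its neighbour in that order. The range over PEP1 clusters in control was therefore wider than the difference between the libraries over all PEP1 cells.

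In the CFA library Il6 was lower in 5 of the 6 PEP1 clusters that both libraries filled. The Prokr2 cluster went from 85.1 to 37.2 CPM (311 and 87 counts), a log2 ratio of −1.19 (−1.55 to −0.85). The Dcdc2a cluster went from 80.3 to 17.8 CPM (236 and 35 counts), a log2 ratio of −2.18 (−2.73 to −1.66). In CFA the intervals of these clusters no longer overlapped, at 29.8 to 45.9 and 12.4 to 24.7 CPM. The Chrna3 cluster had 26.3 and 6.90 CPM (log2 ratio −1.93, −3.10 to −0.95), the Serpinb1a cluster 23.4 and 3.07 CPM (−2.93, −5.27 to −1.28) and the Mfap5 cluster 36.1 and 16.0 CPM (−1.17, −2.38 to −0.15). The Trappc3l cluster was the exception with 9 counts in each library, 11.3 CPM (5.16 to 21.4) and 22.2 CPM (10.1 to 42.1), whose intervals overlapped. In the interferon-led cluster 51 counts in 22 control cells faced 0 counts in 2 CFA cells. Without this cluster the PEP1 log2 ratio was −1.36, and with the same cluster weights in both libraries it was −1.59.

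PEP2 neurons, the small class that carries Sst, Nppb and Nts, were the other neurons with Il6. They had 19 counts in 3 of 12 control cells and 16 counts in 2 of 11 CFA cells, or 34.9 CPM (21.01 to 54.5) and 29.2 CPM (16.7 to 47.4), a log2 ratio of −0.26 (−1.31 to 0.78). The counts came from few cells, and differences within this interval were not detectable at this depth. In the other neuron classes Il6 was near background. Trpm8 neurons had 9 counts in control and 0 in CFA, cLTMRs 4 and 0, NP1 6 and 1, NP2 1 and 0, and NF neurons 0 and 0.

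Outside neurons, Il6 was found in FBs and, in control, in mural cells, the smooth muscle cells and pericytes of vessel walls. FBs held 88 counts in 21 of 593 control cells and 25 counts in 8 of 403 CFA cells, or 76.8 CPM (61.6 to 94.7) and 39.7 CPM (25.7 to 58.7). The log2 ratio was −0.95 (−1.65 to −0.30) and −0.70 without the Ibsp cluster, which held no Il6 count. The summed neuron markers in FBs were 693 and 269 CPM beside 15528 and 15008 CPM in neurons, and their part in the FB difference was not tested. Mural cells held 18 counts in 68 control cells (176 CPM, 104 to 279) and none in 23 CFA cells (0 CPM, 0 to 117), and these intervals overlapped.

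The glia and immune cells held little Il6. SGCs had 21 counts in control and 2 in CFA, a log2 ratio of −1.89 (−5.02 to 0.15), but 15 of the 21 lay in the interferon-led cluster, and without it the ratio was −0.45. The summed neuron markers in SGCs were 624 and 306 CPM, and their part was not tested. Myelinating Schwann cells (mySCs) held 1 count in each library among 2104 and 1320 cells, the level at which free RNA from other cells cannot be told apart from expression. Macrophages had 2 counts and 0, T and NK cells 0 counts and 5, all 5 in 1 cell, and ECs, oligodendrocyte-like cells (OLCs), B cells and erythroid cells had none in either library.

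Lif and Osm lie near each other on chromosome 11 (chr11:4257557-4272514 and chr11:4236420-4241026, both on the plus strand), 16530 bases apart. Lif codes for leukemia inhibitory factor, a cytokine known from injured nerve, and was almost not read. The kept cells held 10 Lif counts in control and 4 in CFA, of which FBs had 5 and 2 and neurons 3 and 1. No ratio was computed from so few.

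Osm, the gene of oncostatin M, was read in myeloid cells. Macrophages had 45 counts in 33 of 198 control cells and 15 counts in 15 of 152 CFA cells, or 98.8 CPM (72.1 to 132) and 56.0 CPM (31.3 to 92.3). The log2 ratio was −0.82 (−1.77 to 0.05) and −1.20 without the interferon-led macrophage cluster. The summed neutrophil and monocyte markers in macrophages were 1368 and 261 CPM, beside 158038 and 176265 CPM in neutrophils and monocytes, and their part in the macrophage value was not tested. Neutrophils and monocytes had 14 counts in 43 control cells and 19 counts in 23 CFA cells, or 152 CPM (83.2 to 255) and 552 CPM (333 to 863), a log2 ratio of 1.86 (0.79 to 2.97). The Osm values therefore lay in opposite directions in these myeloid classes, and the difference between the classes was not tested. Neurons had 1 and 4 Osm counts, and the ECs, FBs and Schwann cells had none.

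Cntf, the ciliary neurotrophic factor that Schwann cells are known to store, could not be read from these data. The control library listed 0 Cntf counts in kept cells and the CFA library 1. GENCODE M21 places Cntf at chr19:12763660-12765632 on the minus strand, and 847 of its 1073 exonic bases (78.9%), among them all 721 bases of its last exon, are also exonic in Zfp91 on the same strand. A library read from the 3′ end cannot assign those bases to either gene. Zfp91 itself stood at 302 and 278 CPM in mySCs (719 and 348 counts), above 114 and 120 CPM in neurons. This level was not particular to mySCs. In control B cells stood at 402 CPM (26 counts), nmSCs at 221, ECs at 190, SGCs at 186 and FBs at 89.9 CPM. In CFA macrophages (328 CPM), T and NK cells (370 CPM) and mural cells (380 CPM) stood above mySCs, from 88, 17 and 12 counts. How much of the Zfp91 level of any class, if any, came from Cntf transcripts was not tested.

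The receptor subunits were distributed quite differently from one another. Il6ra (chr3:89864059-89913196, minus strand) codes for the subunit that makes a cell responsive to IL-6 itself. Its counts lay mostly in macrophages and mySCs and hardly in neurons. By level, immune cells that no marker list named stood above mySCs, at 242 CPM (50 counts) in control and 277 CPM (19 counts) in CFA. Neutrophils and monocytes had 54.3 CPM (5 counts) in control and 262 CPM (9 counts) in CFA. Macrophages had 367 CPM (313 to 427; 167 counts) in control and 664 CPM (570 to 769; 178 counts) in CFA. The log2 ratio was 0.86 (0.54 to 1.17), and the intervals of the levels did not overlap.

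Part of that macrophage ratio moved with the makeup of the class. The interferon-led macrophage cluster, filled in control only, had an Il6ra level of 149 CPM (88.1 to 235), below the other clusters, and without it the log2 ratio was 0.58. The cluster led by Pf4 and Cd163 had 400 CPM in control and 568 CPM in CFA, a log2 ratio of 0.51 (0.09 to 0.92), and that led by P2ry12 and Tmem119, genes known from microglia, 594 and 837 CPM, a log2 ratio of 0.50 (−0.04 to 1.05). Both clusters were thus higher in CFA, the second with an interval that reaches below 0. An Il6ra UMI was found in 48.5% of control and 57.9% of CFA macrophages, and in 11.7% and 24.3% after thinning.

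In mySCs the Il6ra level was 136 CPM (121 to 151; 323 counts) in control and 97.6 CPM (81.0 to 117; 122 counts) in CFA, a log2 ratio of −0.47 (−0.79 to −0.17). The summed macrophage markers in these mySCs were 20.6 and 13.6 CPM, against 11274 and 15280 CPM in macrophages. nmSCs had 27 Il6ra counts in control and 1 in CFA, a log2 ratio of −2.91 (−8.26 to −0.30) whose interval is very wide. The summed mySC markers in nmSCs were 32084 and 23055 CPM, beside 95529 and 82663 CPM in mySCs, and the nmSC markers were 7845 and 11192 CPM. mySCs carry Il6ra, and the part of these transcripts in the nmSC value was not tested. ECs stood at 53.4 and 87.8 CPM, and their log2 ratio of 0.72 (−0.13 to 1.56) became −0.0020 when all cells were thinned to 1 depth. Neurons stood far below, at 0.854 CPM (0.588 to 1.20; 33 counts) and 0.594 CPM (0.285 to 1.09; 10 counts), and PEP1, the class with most Il6, at 0.774 and 0.525 CPM.

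**Figure D2:**
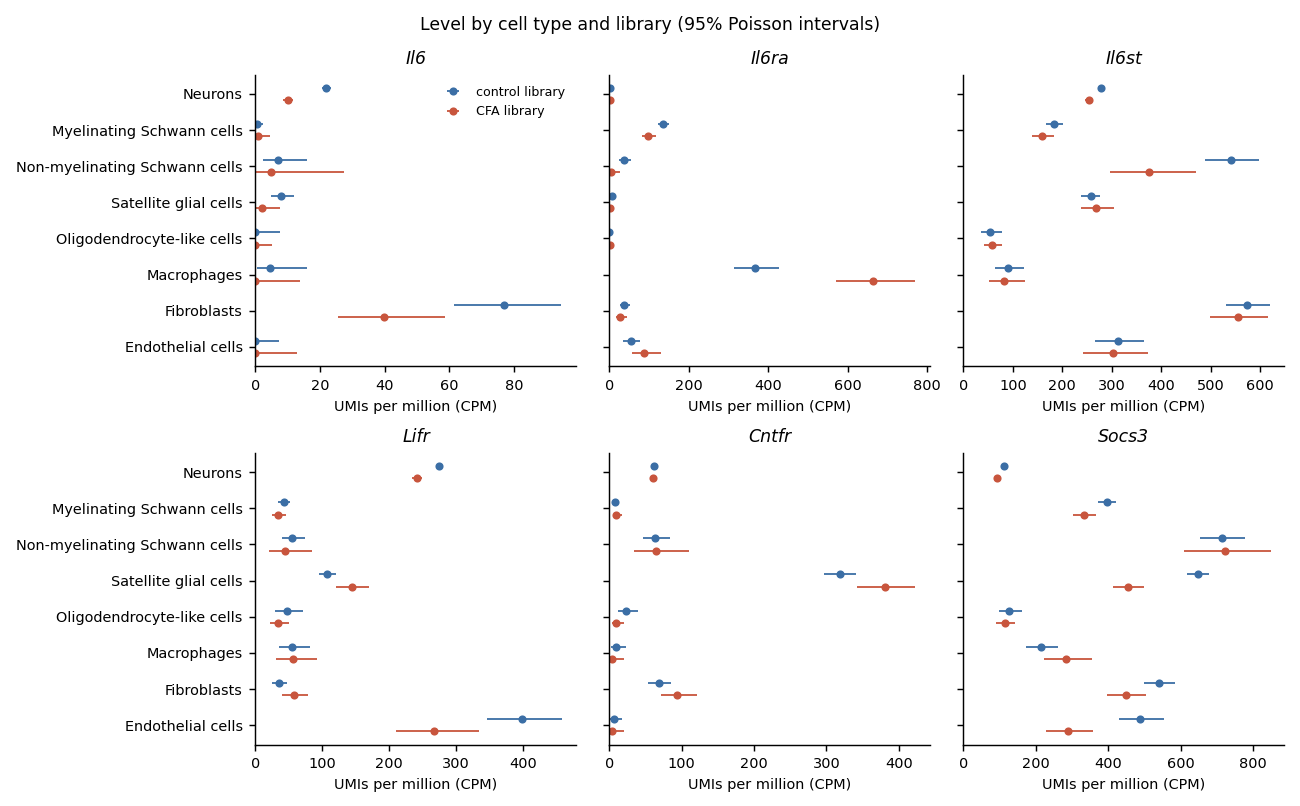
Level of Il6, Il6ra, Il6st, Lifr, Cntfr and Socs3 in 8 cell types, in CPM of that type and library. The control and CFA libraries are shown with 95% intervals for counting error. Il6ra is highest in macrophages (367 and 664 CPM) and near 0 in neurons, Cntfr is highest in SGCs (318 and 381 CPM), and Il6st is read in all 8 types.

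Il6st (chr13:112464070-112510086, plus strand), the gene of the shared subunit gp130, was read in neurons, glia, vessels and FBs alike. The order of levels by cell type in control ran from FBs at 574 CPM (531 to 620) and nmSCs at 541 CPM (489 to 597), which overlapped, through ECs at 312 CPM (266 to 365), neurons at 279 CPM (273 to 284), SGCs at 257 CPM (238 to 277), mural cells at 196 CPM (120 to 303) and mySCs at 183 CPM (167 to 201), of which each overlapped its neighbour, to macrophages at 90.0 CPM (64.6 to 122) and OLCs at 53.1 CPM (34.7 to 77.8). Because neurons are large and deep, they held 80.4% of all Il6st counts in control and 79.4% in CFA.

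Among neuron classes Il6st was highest in the non-peptidergic nociceptors, with 457 CPM (444 to 469) in NP1 and 448 CPM (427 to 471) in NP2 in control, which overlapped. PEP2 followed at 367 CPM (318 to 422) and PEP1 at 179 CPM (173 to 186). Trpm8 neurons, cLTMRs and NF neurons lay between 85.9 and 99.8 CPM with overlapping intervals. Within PEP1, the Serpinb1a cluster stood out with 402 CPM in control and 398 CPM in CFA. The CFA levels were near these, with log2 ratios of 0.06 (−0.03 to 0.16) in PEP1, 0.06 (−0.22 to 0.35) in PEP2, −0.01 (−0.09 to 0.07) in NP1 and 0.10 (−0.06 to 0.25) in NP2. For PEP1 and NP1 the intervals leave room only for small differences between these libraries. In nmSCs Il6st was lower in CFA, at 375 CPM against 541 CPM, a log2 ratio of −0.53 (−0.90 to −0.17).

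Lifr (chr15:7090614-7197489, plus strand), the LIF receptor, had 93.5% of its counts over the named cell types in neurons in control and 92.1% in CFA, beside 81.4% and 78.6% of the UMIs. By level, neurons at 275 and 242 CPM stood below ECs at 399 and 267 CPM. In control NP1 was highest at 427 CPM (415 to 439), followed by PEP2 at 299 CPM (255 to 349), and then by cLTMRs at 233 CPM (218 to 248) and PEP1 at 221 CPM (214 to 229), which overlapped. NP2 at 166 CPM and Trpm8 neurons at 152 CPM overlapped as well, and NF neurons were lowest at 84.4 CPM (64.1 to 109). Outside neurons, ECs had 399 CPM (346 to 458) in control, mural cells 108 CPM, SGCs 107 CPM and the other types less than these.

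The Lifr differences between the libraries were small in neurons and went both ways. The log2 ratio was −0.20 (−0.29 to −0.12) in NP1, from 427 to 371 CPM, and −0.16 (−0.25 to −0.08) in PEP1, from 221 to 197 CPM. It was 0.47 (0.17 to 0.77) in PEP2, from 299 to 414 CPM, in 12 and 11 cells. In ECs Lifr stood at 399 CPM in control and 267 CPM in CFA, a log2 ratio of −0.58 (−0.98 to −0.19). SGCs stood at 107 and 144 CPM, and their log2 ratio of 0.43 (0.12 to 0.73) was 0.37 without the interferon-led cluster. In FBs the log2 ratio of 0.71 (0.02 to 1.40) came from 40 and 36 counts. It was 0.18 without the Ibsp cluster and −0.19 without the 10 cells of each library with the most counts. Those 10 cells are a larger part of the 403 CFA than of the 593 control FBs.

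Cntfr (chr4:41657498-41697089, minus strand), the subunit that CNTF needs besides the LIF receptor, was highest in SGCs among the cell types. FBs had 68.1 CPM (78 counts) in control and 93.8 CPM (59 counts) in CFA, and nmSCs 63.0 and 64.2 CPM (46 and 13 counts). Neurons as a whole stood at 61.3 and 60.0 CPM, and only some neuron classes held Cntfr. SGCs had 318 CPM (297 to 340; 854 counts) in control and 381 CPM (343 to 423; 360 counts) in CFA, a log2 ratio of 0.26 (0.08 to 0.44). In the interferon-led SGC cluster the control level was 168 CPM, and without that cluster SGCs stood at 364 and 380 CPM, a log2 ratio of 0.06. Thinned to 1 depth the ratio was −0.10, so no SGC difference held over these settings.

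The neuron classes split on Cntfr. NF neurons (122 CPM), Trpm8 neurons (112 CPM), cLTMRs (104 CPM) and PEP1 (98.3 CPM, 93.4 to 103) stood near each other in control, whereas PEP2 had 9.19 CPM, NP1 3.15 CPM (2.21 to 4.36) and NP2 2.49 CPM (1.14 to 4.72). The classes with most Il6st and Lifr, NP1 among them, were thus nearly without Cntfr. In CFA the levels were lower in NF neurons (72.3 CPM, log2 ratio −0.76, −1.46 to −0.10, from 18 and 6 cells), Trpm8 neurons (84.2 CPM, −0.41, −0.74 to −0.08) and PEP1 (85.8 CPM, −0.20, −0.33 to −0.06), and cLTMRs had 99.1 CPM with a log2 ratio of −0.06 (−0.31 to 0.18).

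Counting the subunits together in single neurons gave shares that differed between the classes. After thinning to 5000 UMIs, Lifr and Il6st UMIs were found together in 68.4% of control and 64.1% of CFA NP1 neurons, in 35.1% and 28.7% of PEP1 neurons, in 28.8% and 21.3% of cLTMRs and in 26.7% and 13.5% of Trpm8 neurons. The shares were 58.3% and 63.6% in PEP2, 44% and 53.3% in NP2 (22 of 50 and 8 of 15 cells) and 13.3% and 16.7% in NF neurons (2 of 15 and 1 of 6 cells). In every neuron class the intervals of the libraries overlapped, so no direction was read from these shares. Adding Cntfr left 0% and 1.56% of NP1 neurons (none of 171 cells and 1 of 64), against 16.0% and 15.2% of PEP1 neurons. Osmr, the OSM receptor subunit that is not among the 9 genes, was found together with Il6st in 83.3% and 90.9% of PEP2 and in 22.0% and 26.7% of NP2 neurons, and in at most 5.09% of the cells of any other class. Il6ra and Il6st were found together in 0.25% of control and 0.45% of CFA PEP1 neurons, 1 cell in each library. At full depth the pair was found in 3.82% of control and 1.84% of CFA neurons, whereas Lifr and Il6st were found together in 92.0% and 85.1%. For PEP2 these shares rest on 12 and 11 cells.

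**Figure D3:**
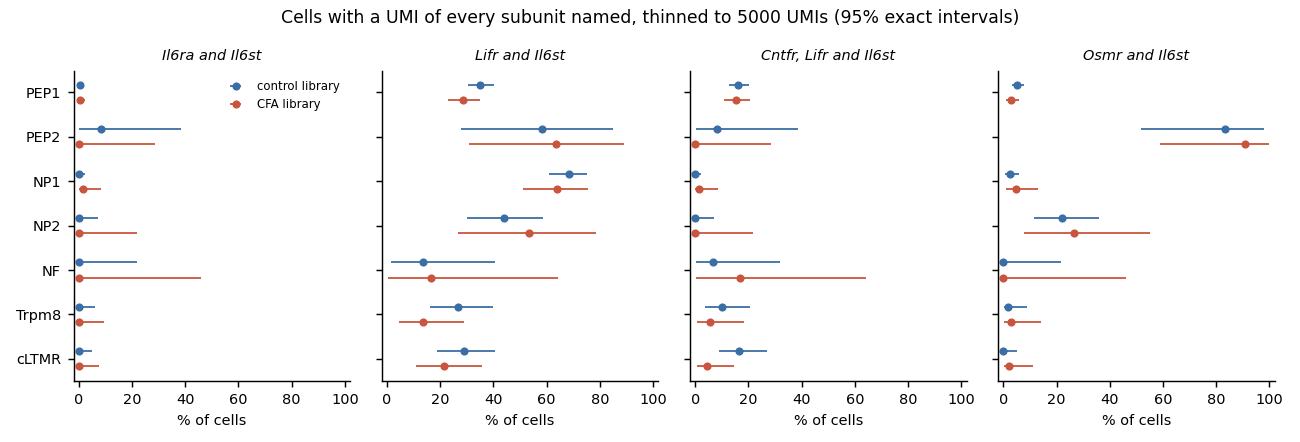
Share of the cells of each neuron class, in percent, with UMIs of every gene of a receptor set after thinning to 5000 UMIs, in the control and CFA libraries, with exact binomial 95% intervals. Il6ra with Il6st is near 0 in every class except the small PEP2 class, where it rests on single cells, Lifr with Il6st is highest in NP1 (68.4% and 64.1%), and Osmr with Il6st is highest in PEP2.

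Socs3, whose upstream window with its STAT match is printed above, was read in every large class. In control it was highest in nmSCs at 713 CPM (653 to 777) and SGCs at 647 CPM (616 to 678), which overlapped, followed by mural cells at 598 CPM (457 to 768), FBs at 540 CPM (499 to 585) and ECs at 488 CPM (429 to 553), each overlapping its neighbour, and by mySCs at 396 CPM (371 to 422). Macrophages had 213 CPM, OLCs 127 CPM and neurons 112 CPM (109 to 116). Among neuron classes PEP2 led with 208 CPM (171 to 250), then PEP1 with 146 CPM (140 to 153) and cLTMRs with 133 CPM (122 to 145), which overlapped, and NP2 was lowest with 45.0 CPM (38.4 to 52.5).

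In PEP1 neurons Socs3 was lower in the CFA library, at 101 CPM (94.1 to 109; 771 counts) against 146 CPM in control (2271 counts). The log2 ratio was −0.53 (−0.65 to −0.42), and −0.55 without the interferon-led cluster. It was below 0 in all 6 PEP1 clusters that both libraries filled, from −0.94 (−1.45 to −0.46) in the Mfap5 cluster and −0.82 (−1.04 to −0.59) in the Prokr2 cluster to −0.19 (−0.44 to 0.06) in the Chrna3 cluster. The 8 immediate early genes listed, a group known to respond to tissue dissociation, had a median log2 ratio of 0.26 in PEP1 and none of them was past 1.5-fold in either direction.

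The other neuron classes had smaller point estimates, but only the NP1 interval left out the PEP1 value of −0.53. NF neurons had a log2 ratio of −0.35 (−1.07 to 0.32) and NP2 −0.30 (−0.89 to 0.24). PEP2 had −0.23 (−0.64 to 0.17) and Trpm8 neurons −0.21 (−0.61 to 0.18). In cLTMRs the levels were 133 and 106 CPM (log2 ratio −0.33, −0.56 to −0.10). In NP1 they were 86.1 and 84.1 CPM (log2 ratio −0.03, −0.22 to 0.15), but its clusters lay in opposite directions, with −0.42 (−0.69 to −0.16) in the cluster led by Prkcq and Lpar3 and 0.37 (0.11 to 0.63) in that led by Lhfpl1 and Serpina11. Outside neurons, SGCs had 647 and 454 CPM (log2 ratio −0.51, −0.67 to −0.36, and −0.48 without the interferon-led cluster) and ECs 488 and 288 CPM (−0.76, −1.14 to −0.40). The summed FB markers in ECs were 771 and 91.4 CPM, beside 63328 and 50337 CPM in FBs, and their part in the EC values was not tested. FBs had −0.27 (−0.48 to −0.06) and mySCs −0.25 (−0.42 to −0.08), nmSCs had 0.02 (−0.26 to 0.28), and macrophages 0.41 (−0.04 to 0.86), from 213 to 284 CPM, and 0.32 without the interferon-led cluster.

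**Figure D4:**
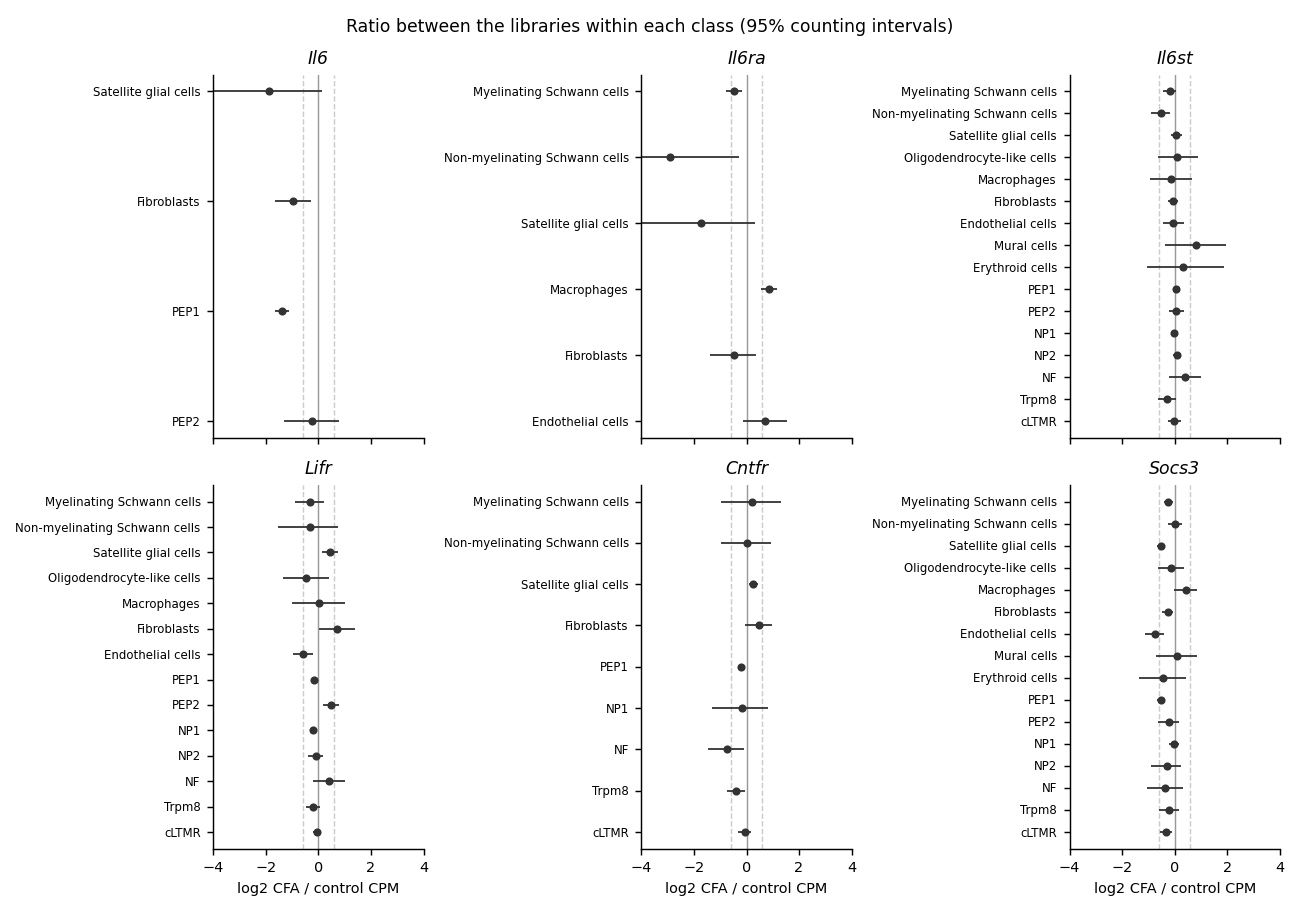
Log2 ratio of the CFA over the control level of Il6, Il6ra, Il6st, Lifr, Cntfr and Socs3, with exact 95% intervals for counting error. Each class with at least 20 counts over both libraries is drawn, except neurons as a whole. Dashed lines mark 1.5-fold, and the Osm ratios are not drawn. The axis ends at −4 and 4, so the widest intervals are not drawn to their ends. Il6 in PEP1 is at −1.39, Socs3 in PEP1 at −0.53 and Il6ra in macrophages at 0.86, and most other points lie between the dashed lines.

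Few members had at least 20 counts in any class, too few for a share of members to be read against that of all genes. Both are given as a description. In PEP1 5 members had at least 20 counts, and 1 of them, Il6, was past 1.5-fold lower in CFA, where 7.31% of 14452 genes were lower and 6.0% higher to that degree. Over all neurons it was 1 of 6, again Il6, beside 7.11% of 17125 genes lower and 7.33% higher. The members' median log2 ratio over all neurons was −0.22, against 0.00 for all genes tested. In PEP2, NP1, NP2, Trpm8 neurons and cLTMRs none of the 3 to 4 members with enough counts was past 1.5-fold. Of all genes 11.1% were higher and 11.3% lower to that degree in PEP2, 5.25% and 8.00% in NP1, 6.74% and 11.0% in NP2, 6.23% and 9.72% in Trpm8 neurons and 5.14% and 8.12% in cLTMRs. In NF neurons 1 of 4 members, Cntfr, was lower, beside 14.9% of all genes lower and 13.5% higher.

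In the other cell types few members had enough counts as well. In macrophages Il6ra was higher and Osm lower out of 5 members, beside 15.5% of genes higher and 22.7% lower. In FBs Lifr was higher and Il6 lower out of 6, beside 13.4% and 13.1%. In ECs Il6ra was higher and Socs3 lower out of 4, beside 14.0% and 16.0%. In SGCs Il6 and Il6ra were lower out of 6, beside 11.9% of genes lower and 9.62% higher. In nmSCs Il6ra was lower out of 5, beside 18.5% lower and 15.6% higher. In mySCs none of 5 was past 1.5-fold, beside 10.4% higher and 11.1% lower, and in OLCs none of 3, beside 14.7% and 12.6%. Osm in neutrophils and monocytes was the only member with enough counts there and was higher, as were 23.5% of the genes tested, with 20.4% lower. In mural cells Il6st was higher, 1 of 2 members with enough counts, at 196 and 348 CPM with a log2 ratio of 0.83 (−0.38 to 1.96), beside 17.1% of genes higher and 24.4% lower, and in erythroid cells neither Il6st nor Socs3 was past 1.5-fold, beside 27.2% higher and 28.1% lower.

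The rest of the pathway was set beside the members from lists of known genes. Among the signal transducers, the adaptor Gab1 was past 1.5-fold lower in PEP1 (29.2 and 17.8 CPM, log2 ratio −0.71), and none was past it higher. Of 7 negative regulators and sheddases 1 was lower, the STAT inhibitor Cish (20.3 and 12.3 CPM, −0.72), and none higher. None of the 9 listed STAT3 target genes with at least 20 counts in PEP1 was past 1.5-fold in either direction. In SGCs 5 of 10 such targets were lower (Cebpb, Timp1, Il4ra, Pim1 and Gfap) and 1, Bcl3, was higher, with a median log2 ratio of −0.52 beside 0.02 over all genes tested there. FBs had 3 of 8 lower and 1 higher, and ECs 3 of 8 lower and none higher. Over all neurons 2 of 10 were lower (Cebpb and Lcn2) and none higher. nmSCs had 1 of 10 and mySCs 1 of 7 lower, and none higher. In macrophages 2 of 8 were higher (Bcl3 and Pim1) and none lower. Neutrophils and monocytes had 3 of 5 higher, T and NK cells 1 of 5, and neither had any lower. Of all genes tested, 11.9% were lower to that degree in SGCs, 13.1% in FBs, 16.0% in ECs and 7.11% in neurons. The shares lower were 18.5% in nmSCs and 11.1% in mySCs. The shares higher were 15.5% in macrophages, 23.5% in neutrophils and monocytes and 16.4% in T and NK cells. In macrophages 1 of 5 transducers was higher, Stat3 at 490 and 955 CPM (log2 ratio 0.96). Stat3 lay the other way in mySCs, at 624 and 342 CPM (−0.87).

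Osmr, which receives the oncostatin M signal, was highest in PEP2 among the neuron classes. It stood at 939 CPM in control and 767 CPM in CFA in PEP2 (log2 ratio −0.29), at 87.8 and 83.0 CPM in NP2 and at 24.2 and 16.3 CPM in PEP1. In FBs it was lower in CFA, at 76.8 and 39.7 CPM (log2 ratio −0.95), and in ECs too, at 121 and 59.7 CPM (−1.01).

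The genes whose pattern was most like that of a member were named by Pearson's r of log2(CPM + 1), as a description only, since the points share libraries and depth. Over 26 points (neuron clusters by library), Il6 was most like Tulp4 (r = 0.89), Serpina3n (0.88) and H3f3b (0.87). Over 26 points of cell types by library, Il6st was most like Odr4 (0.88), Setd5 (0.87) and Anxa7 (0.86), and Lifr like Bmpr2 (0.92), Mark4 (0.92) and Serpinb6a (0.91). Cntfr was most like Mest (0.92), Slc4a4 (0.90) and Pnmal2 (0.89). Socs3 was most like Jun (0.95), Mt1 (0.91) and Ptms (0.91), and Jun is an immediate early gene. With a pseudocount of 10 in place of 1 the 3 genes nearest to Il6 were H3f3b, Slc10a6 and Serpina3n, and those nearest to Il6st were Amotl1, Nenf and Laptm4a, none of which was named with a pseudocount of 1. Lifr and Socs3 each kept 2 of their 3 genes, and Cntfr kept its 3 in another order.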

How the data were processed

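BD Rhapsody whole-transcriptome libraries were prepared from dissociated TGs, 1 per condition. The authors deposited UMI counts per gene and cell as sparse matrices; the labels name fastp and GRCm38, and the counting pipeline's version is not given in the sources used here. Both libraries were read whole, without the random subsampling of cells described by the study. Cells with at least 150 genes and at most 25% mitochondrial UMIs were kept. They were clustered together with Seurat 5.3.0 in R 4.3.3 (log-normalization, 2000 variable genes, 20 components, Louvain). The resolution was 0.8 for all cells and for immune cells on their own, and 1 for neurons. The members and the pathway genes were left out of clustering and naming. Classes were named from marker lists, so differences from the study's classes may come from rebuilt names. Doublets were scored with Scrublet in Scanpy 1.11.5 and removed only in an alternative, where 122 control and 25 CFA cells had a score over 0.25.

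For each class, the counts of a library were added up and scaled by the class total (CPM), with exact Poisson intervals. Log2 ratios have the conditional exact binomial interval and were given from 20 counts over both libraries, and an observed 0 was taken to allow 3 counts. Shares have exact Clopper-Pearson intervals. Python 3.11.15, NumPy 2.4.6, SciPy 1.17.1 and pandas 2.3.3 were used. The interval was tested on simulated Poisson counts, the model that it assumes. That test says nothing about counts that lie unevenly over cells, as those of Il6 in PEP1 did. All 9 members were described in every class; pathway genes were named from 50 counts and 1.5-fold, and for each member with 200 counts the 3 genes most like it, except that some results are not reported here. Positions are from GENCODE M21. The members and lists were chosen with earlier results of these data known. With 1 library per condition no p-value was computed.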

Additional observations from a re-analysis of the deposited data

Results flagged for a closer look

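Some members had ratios of opposite sign in different classes, each with an interval on its own side of 0. The differences between the classes were not tested, and no cause was weighed. For Il6ra the log2 ratio of CFA over control was 0.86 in macrophages, −0.47 in mySCs and −2.91 in nmSCs. For Lifr it was 0.43 in SGCs, 0.71 in FBs and 0.47 in PEP2, against −0.58 in ECs, −0.16 in PEP1 and −0.20 in NP1. For Cntfr it was 0.26 in SGCs, against −0.20 in PEP1, −0.76 in NF neurons and −0.41 in Trpm8 neurons. Lifr in FBs was 0.18 without the Ibsp cluster and −0.19 without the 10 cells with the most counts. Cntfr in SGCs was 0.06 without the interferon-led cluster and −0.10 thinned to 1 depth, whereas Lifr in SGCs was 0.37 without that cluster. The nmSC value of Il6ra stands beside mySC markers of 32084 and 23055 CPM in nmSCs, whose part was not tested.

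Immune cells that no marker list named held Il6 in the CFA library. Among 27 such cells 11 counts were found, all in 1 cell (160 CPM of these cells), whereas 71 such cells in control held 4 counts (19.4 CPM).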

How the results depend on the processing

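The 73 ratios were recomputed under 15 alternatives: stricter and looser cell filters, lower and higher resolution, 30 components, no gene left out of clustering, doublets removed, totals without mitochondrial genes, centring on the median gene, equal weight per cell, thinning to 1 depth, clusters mostly of 1 library left out, equal cluster weights and, chosen after seeing the data, without the interferon-led clusters and without the 10 cells of each library with the most counts. There were 1086 values, among them the recomputed shares of neuronal Il6 counts in PEP1. Of these, 1024 lay within the counting interval of the result as reported, 60 lay outside it and 2 reversed a ratio past 1.5-fold. Of 196 values of the 14 ratios past 1.5-fold, 194 kept their direction. The exceptions were Il6ra in ECs after thinning (−0.0020) and Lifr in FBs without the 10 cells with the most counts (−0.19). Il6 in PEP1 ran from −1.90, without the 10 cells with the most counts, to −1.34, without doublets, and the shares of neuronal Il6 counts in PEP1 and the Socs3 ratio in PEP1 stayed within their intervals. The cause of the moves was not tested. No paired analysis was possible because each condition has 1 library. Counting depth limits Lif and every member in NF and PEP2 neurons, B cells and T and NK cells.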

Other observations

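Neurons also carried genes of the family that act beside the 9 members. Il31ra, the receptor gene for the itch cytokine IL-31, which pairs with Osmr, stood at 524 CPM in control and 564 CPM in CFA in PEP2, a log2 ratio of 0.11 (−0.13 to 0.34). Over all neurons its level was 8.15 and 19.7 CPM, a log2 ratio of 1.27 (1.04 to 1.5), while PEP2 made up 1.41% of the neuronal UMIs in control and 3.26% in CFA. In PEP1 it had 14 and 13 counts, or 0.903 and 1.70 CPM, a log2 ratio of 0.92 (−0.29 to 2.11). Ctf1, the gene of cardiotrophin 1, a ligand of the LIF receptor, had 65 and 51 counts in neurons, or 1.68 and 3.03 CPM (log2 ratio 0.85, 0.29 to 1.40). Of the other ligands of the family 3 had at least 20 counts over all neurons, with a median log2 ratio of −0.56. Ctf1 was past 1.5-fold higher in CFA and Ebi3 lower, beside 7.33% of all genes higher and 7.11% lower.

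The sheddases that can release IL6RA from the cell surface were read in the cells that carry Il6ra. Adam17 stood at 250 and 298 CPM in macrophages, a log2 ratio of 0.25 (−0.18 to 0.68), and Adam10 at 416 and 430 CPM in mySCs, a log2 ratio of 0.05 (−0.10 to 0.20). Of 6 listed neuronal genes that respond to LIF or injury, 3 had at least 20 counts over all neurons, with a median log2 ratio of 0.02. Of these 1, Sprr1a, was past 1.5-fold higher in CFA and none lower, beside 7.33% of all genes higher and 7.11% lower. Gal, the gene of the neuropeptide galanin, which LIF is known to induce in injured sensory neurons, stood at 440 and 363 CPM in PEP1, a log2 ratio of −0.28 (−0.34 to −0.21). Atf3, a marker of injured sensory neurons that dissociation also raises, stood at 219 and 225 CPM in PEP1, a log2 ratio of 0.04 (−0.05 to 0.12). In nmSCs it stood at 1414 and 2613 CPM, a log2 ratio of 0.89 (0.73 to 1.04). There 6 of the 8 immediate early genes were also past 1.5-fold higher in CFA, beside 15.6% of all genes, and the part of dissociation was not tested.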
